A study of Mus musculus with 4 samples.

Results

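The 8 genes Id4, Eomes, Nanos2, Foxc2, Tspan8, Tcl1, Nefm and Gsc were described in single-cell RNA sequencing of testis cells from mice at postnatal day 8. They were taken by symbol from the 30828 genes of each matrix, and all 8 were listed in both. They were chosen by their UMIs per 1000000 UMIs (CPM) and their co-detection in germ barcodes of these same matrices, genotype ratio included, so every level and ratio below is a description of the libraries and none is a test. There were 4 labelled samples, 2 from control and 2 from Cnot3-cKO mice, but each deposited matrix merged both samples of its genotype with no key from barcode to sample. The titles of the samples of a genotype differed only in the prefixes NS and NOV, and the methods name NextSeq and NovaSeq sequencers, so both could be runs of the same cells, which the sources used here do not settle. Each genotype was therefore 1 library, no difference between genotypes had a replicate check, and the 95% intervals given cover counting error only. Control mice were labelled wild-type and were Cnot3 flox/flox littermates by the study's methods. Cnot3-cKO mice were labelled Cnot3 KO and carried Cnot3 flox/flox together with Ddx4-creER, a tamoxifen-inducible Cre driven by a germ cell promoter, so that deletion was directed to germ cells. Both groups received 4-OHT from postnatal day 1, for which the labels gave a different last day for each sample and the methods a common course. Cells of both groups had been sorted on CD9 and THY1, and the number of animals per library was not given in the sources used here.

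Spermatogonial stem cells renew themselves and feed progenitors, which then differentiate and enter meiosis in response to retinoic acid. In mouse testis, GFRA1, the co-receptor for the niche ligand GDNF, marks the most primitive spermatogonia, NEUROG3 marks progenitors, and KIT and STRA8 mark cells that have begun to differentiate. Among the 8 genes, Id4 encodes an inhibitor of basic helix-loop-helix transcription factors and is widely used as a stem cell reporter. Eomes, Foxc2 and Gsc encode transcription factors of the T-box, forkhead and homeobox families, and Eomes and Foxc2 have been used to mark subsets of stem cells. Nanos2 encodes an RNA-binding protein that holds male germ cells in the stem state and binds the CCR4-NOT deadenylase complex, of which CNOT3 is a subunit. Tspan8 encodes a tetraspanin of the cell surface, Tcl1 a co-activator of the kinase AKT, and Nefm the medium chain of neurofilaments, best known from neurons.

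The 250 bases upstream of the RefSeq start are shown for Gsc and Eomes, which were about 5-fold higher in Cnot3-cKO germ barcodes, and for Tcl1, whose ratio was small. They were read from RefSeq promoters on GRCm38.p6, 5′ to 3′ on the strand of the gene, and RefSeq promoters were matched for 6 of the 8 genes, Nefm and Foxc2 being the others. The Gsc window lies at chr12:104473237-104473486 on the minus strand, the Eomes window at chr9:118477939-118478188 on the plus strand and the Tcl1 window at chr12:105222738-105222987 on the minus strand.
Gsc: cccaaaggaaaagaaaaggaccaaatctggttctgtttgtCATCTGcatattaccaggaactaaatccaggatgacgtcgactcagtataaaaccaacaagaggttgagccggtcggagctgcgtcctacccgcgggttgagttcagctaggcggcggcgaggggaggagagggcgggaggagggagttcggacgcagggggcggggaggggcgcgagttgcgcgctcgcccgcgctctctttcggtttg
Eomes: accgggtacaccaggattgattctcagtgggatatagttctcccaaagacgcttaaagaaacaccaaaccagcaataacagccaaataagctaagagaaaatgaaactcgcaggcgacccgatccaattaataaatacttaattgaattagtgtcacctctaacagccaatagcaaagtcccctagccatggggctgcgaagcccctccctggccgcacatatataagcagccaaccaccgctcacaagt
Tcl1: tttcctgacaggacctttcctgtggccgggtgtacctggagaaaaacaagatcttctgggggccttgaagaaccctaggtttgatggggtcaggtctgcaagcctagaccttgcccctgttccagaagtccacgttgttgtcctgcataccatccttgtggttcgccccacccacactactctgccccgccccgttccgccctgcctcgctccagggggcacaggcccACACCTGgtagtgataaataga
Capitals mark matches on either strand to the E-box letters CANNTG, which basic helix-loop-helix factors bind and ID4 counteracts, or to the T-box letters AGGTGT, to which factors such as EOMES bind. Counting back from -1 at the last upstream base, Gsc had 1 E-box match beginning at -210, and Tcl1 had a T-box match beginning at -22 that overlapped an E-box match beginning at -21. Neither motif was found in the windows of Eomes, Id4, Nanos2 and Tspan8. Among 32851 mouse promoter windows of the same length, 66.2% held the E-box letters and 11.8% the T-box letters, so a match is a description and not a site.

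By the GENCODE annotation of mm10, the genes lie on 7 chromosomes. Tcl1 (12:105216750-105222793) and Gsc (12:104471209-104473330) share chromosome 12, both on the minus strand. Id4 lies at 13:48261228-48266026, Eomes at 9:118478212-118486132, Nanos2 at 7:18987400-18988962, Foxc2 at 8:121116171-121118895 and Tspan8 at 10:115816832-115849893, all on the plus strand. Nefm, at 14:68082590-68124846 on the minus strand, spans Nefl, the light neurofilament chain, on the opposite strand. Foxc2 overlaps the same-strand transcript Gm20388, so UMIs in their shared stretch could have gone to neither gene.

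Germ barcodes were called barcodes with at least 10 UMIs of the germ cell markers Ddx4 and Dazl together, which gave 1350 of 8341 in control (16.2%) and 564 of 9336 in Cnot3-cKO (6.04%). Although the cells had been sorted, most called barcodes held Sertoli or interstitial markers. Germ barcodes were deep, with a median of 42254.5 UMIs in control and 46014.5 in Cnot3-cKO, against 13291 and 12756 in Sertoli barcodes. Barcodes just outside the threshold, with 9 marker UMIs, numbered 6 in each library, and those just inside, with 10, numbered 11 and 0. Cnot3 itself, the targeted gene, stood at 71.4 CPM, over the UMIs of the barcodes summed, in germ barcodes of control and 39.8 in those of Cnot3-cKO, a log2 ratio of -0.84 (-0.94 to -0.75). Tags of 3′ ends need not lie in the deleted part of a floxed gene, so this value checks the labels only weakly. Sertoli markers in germ barcodes summed to 179 CPM in control and 239 CPM in Cnot3-cKO, and interstitial markers to 434 and 350 CPM. Scrublet called 14.1% and 12.6% of germ barcodes doublets. The libraries shared 18 called barcode sequences, 1 of them in the germ barcodes of both. The part of somatic RNA and doublets in the results below was not tested beyond the settings named beside them.

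All 8 genes were higher in germ than in Sertoli or interstitial barcodes of both libraries, and Id4, Tspan8 and Foxc2 were the members with over 0.5 CPM in a somatic class. In Sertoli barcodes the other 6 genes stood between 0 and 0.32 CPM in either library, whereas Id4 stood at 3.03 and 3.23 CPM and Tspan8 at 2.58 and 2.19 CPM. Gsc had no UMI in the Sertoli barcodes of either library, which made it at least 17.5-fold lower there than in germ barcodes of control and at least 135-fold lower in Cnot3-cKO, against a floor of 3 counts per library. Of the members with at least 100 UMIs in the comparison, 6 of 6 were 2-fold or more higher in germ than in Sertoli barcodes of control, where 29.6% of all genes tested were. In Cnot3-cKO the count was 7 of 7, against 27.2% of all genes. Tspan8 had the smallest of these differences, 3.75-fold in control and 6.34-fold in Cnot3-cKO. Interstitial barcodes held Id4 at 5.46 and 6.35 CPM and Foxc2 at 1.33 and 0.952 CPM. Foxc2 was thus above its Sertoli level in interstitial barcodes, and Nanos2 had no interstitial UMI in either library.

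**Figure D1:**
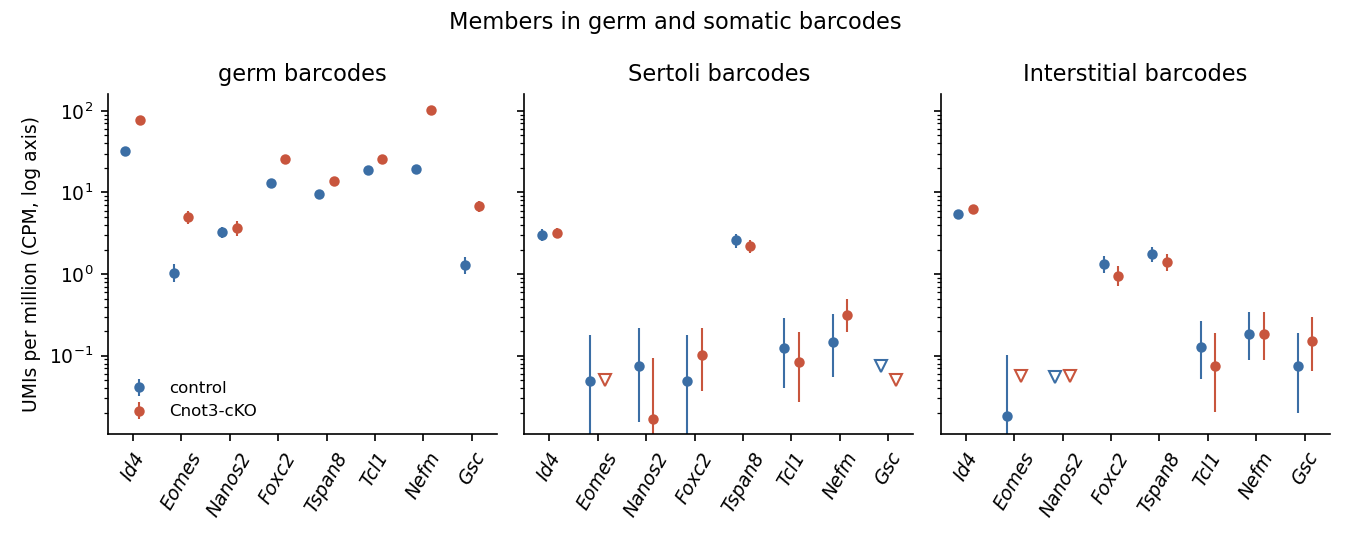
Level of each gene (CPM, log axis) in germ, Sertoli and interstitial barcodes of the control (blue) and Cnot3-cKO (red) library, with exact Poisson 95% intervals, cut at the lower edge of the axis where they reach further. Open triangles stand for 0 UMIs and are drawn at the floor of 3 counts. Nefm stood at 19.3 and 101 CPM in germ barcodes and at 0.148 and 0.32 CPM in Sertoli barcodes.

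Germ barcodes were then split by the UMIs of Gfra1 and Kit. Of control germ barcodes, 23.5% held Gfra1 without Kit (the Gfra1 class, 317 barcodes), 7.70% held both, 40.9% held Kit without Gfra1 (the Kit class) and 27.9% held neither. Of Cnot3-cKO germ barcodes, 35.6% were in the Gfra1 class (201 barcodes), 17.6% held both, 30.5% were in the Kit class and 16.3% held neither. Gfra1 itself stood at 19.0 CPM in control and 43.7 CPM in Cnot3-cKO germ barcodes, and the progenitor gene Neurog3 at 13.4 and 3.13 CPM. The 2 libraries thus differed in stage makeup by these markers, and the genotype ratios over all germ barcodes carry that difference with them.

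Levels of 6 of the 8 genes were highest in the Gfra1 class in both libraries, the exceptions being Gsc and Eomes. Without germ barcodes rich in somatic markers the count was 3 of 8. The like count over all genes was not made, so both counts describe the members only. In control, Foxc2 stood at 39.2 CPM (35.9 to 42.7) in the Gfra1 class, 19.3 in the class with both markers, 7.26 with neither and 0.892 in the Kit class. These Foxc2 intervals did not overlap between any of the 4 classes. Nanos2 stood at 7.91 CPM (6.48 to 9.57) in the Gfra1 class, 4.32 with neither marker, 2.10 with both and 0.170 in the Kit class. Unlike Foxc2, Nanos2 was thus higher with neither marker than with both, although those intervals, 3.34 to 5.49 and 1.05 to 3.76, overlapped. Tcl1 followed the order of Foxc2, with 51.6, 32.1, 13.0 and 1.49 CPM from the Gfra1 class through both and neither to the Kit class. Id4 followed it as well, at 80.0, 48.6, 27.4 and 4.89 CPM. Tspan8 had the flattest profile of the genes with this order, at 19.6, 15.7, 10.7 and 2.08 CPM. Nefm stood at 53.6 CPM in the control Gfra1 class and 45.1 with both markers, and its level in the Kit class was 2.04 CPM.

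Against the Kit class, 6 of 6 members tested were 2-fold or more higher in the control Gfra1 class, where 6.74% of all genes were. The largest of these ratios was that of Nanos2, 46.6-fold from 106 and 4 UMIs, which ranked 3 of 11547 genes, and Foxc2 ranked 4, Tcl1 5, Nefm 7 and Id4 10. In Cnot3-cKO 5 of 5 members passed, against 6.11% of all genes, and Foxc2 ranked 3, Nefm 4, Id4 5 and Tcl1 7 of 9956. Nanos2 and Eomes lacked the 100 UMIs there. The same contrast set 19 of 21 genes of a wider stem state list 2-fold or more higher in control, Gfra1 by construction among them. Gsc had 39 UMIs in this contrast in control and 81 in Cnot3-cKO, too few to be counted, and its order differed. In control it stood at 1.19 CPM (0.683 to 1.94) in the Gfra1 class and 0.977 (0.62 to 1.47) in the Kit class, which overlapped, and 31.1% of its 74 germ UMIs lay in the Kit class. In Cnot3-cKO the Gfra1 class was 3.61-fold above the Kit class level of 1.90 CPM, a log2 ratio of 1.85 (1.03 to 2.77). There it stood highest with both markers, at 15.9 CPM (12.6 to 19.8), 2.32-fold its Gfra1 class level of 6.85 CPM (5.30 to 8.72), a ratio that 0.127% of all genes reached. Passing 2-fold rested on 1 of the 99 barcodes, which held 23 of 81 Gsc UMIs. Without that barcode the level was 11.6 CPM, still above the Gfra1 class, and the ratio 1.69-fold. Eomes in Cnot3-cKO was likewise highest with both markers, at 9.23 CPM against 7.58 in the Gfra1 class, but these intervals overlapped, and without the barcode richest in Eomes the level with both markers was 7.19 CPM.

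**Figure D2:**
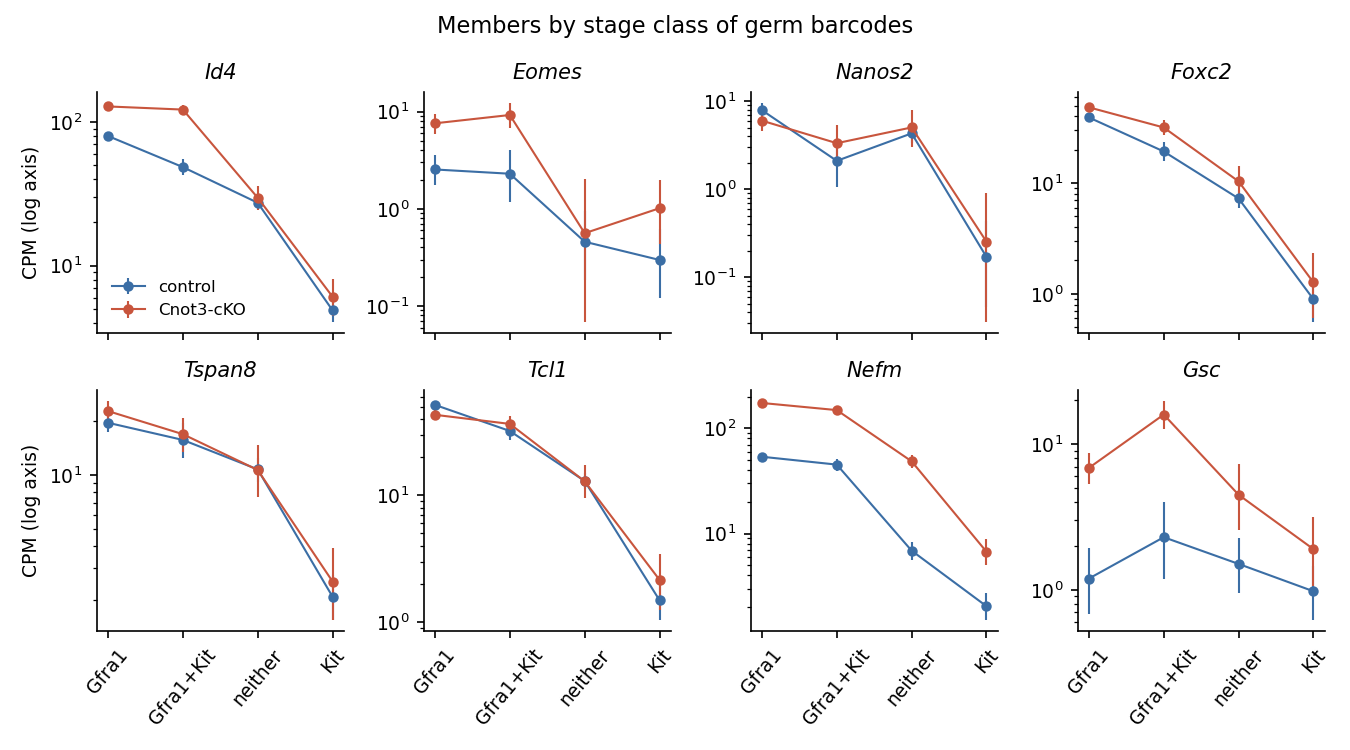
Level of each gene (CPM, log axis scaled for each panel) by stage class, from Gfra1 only through both markers and neither to Kit only, in the control (blue) and Cnot3-cKO (red) library, with exact Poisson 95% intervals. Foxc2 goes from 39.2 CPM in the control Gfra1 class to 0.892 CPM in the Kit class, while Gsc lies near 1 CPM in both in control.

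Over all germ barcodes, 4 of the 8 genes were 2-fold or more higher in Cnot3-cKO than in control and none was 2-fold or more lower, where 1.82% of the 13350 genes tested were higher and 0.697% lower. The median log2 ratio of the members was 1.11, against 0.01 for all genes, whose central 90 percent lay between -0.51 and 0.66. Since the genes had been chosen with this contrast known, nothing follows from these counts beyond the values themselves. The members were Nefm, Gsc, Eomes and Id4, and the first 3 ranked 5, 4 and 6 of all genes.

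Nefm stood at 19.3 CPM (18.2 to 20.4, 1107 UMIs) in control and 101 CPM (97.6 to 105, 2656 UMIs) in Cnot3-cKO germ barcodes, a log2 ratio of 2.40 (2.29 to 2.50). With the filters of the study the ratio was 1.51, and at the stage makeup of Cnot3-cKO it was 1.76. Both the share of barcodes and the depth within them differed. Nefm had a UMI in 20.7% of germ barcodes in control and 47.9% in Cnot3-cKO, and the positive barcodes held a mean of 3.97 and 9.84 UMIs. At least 10 Nefm UMIs were counted in 32 control and 85 Cnot3-cKO barcodes, so the difference was spread over many barcodes. Nefm was also higher among empty barcodes of Cnot3-cKO, at 15.7 CPM against 5.65 CPM, and free RNA made up an estimated 8.69% and 9.09% of germ barcode UMIs. Gsc stood at 1.29 CPM (1.01 to 1.62, 74 UMIs) in control and 6.80 CPM (5.84 to 7.87, 178 UMIs) in Cnot3-cKO, for a log2 ratio of 2.40 (2.001 to 2.81). Gsc UMIs were found in 5.19% and 15.8% of germ barcodes, and 1 Cnot3-cKO barcode held 23 of them while no control barcode held over 3. Without that barcode the ratio was 2.20. Eomes stood at 1.04 CPM (60 UMIs) in control and 4.96 CPM (130 UMIs) in Cnot3-cKO, for a log2 ratio of 2.25 (1.80 to 2.71). It was detected in 3.48% of control germ barcodes and in 10.99% of those from Cnot3-cKO. Its scarcity limits every finer split of this gene.

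Id4 stood at 32.4 CPM (30.9 to 33.9) in control and 76.9 CPM (73.6 to 80.3) in Cnot3-cKO, for a log2 ratio of 1.25 (1.16 to 1.34), with a UMI in 44.7% and 60.3% of germ barcodes. Its place above 2-fold depended on which barcodes were counted. With the filters stated in the study, which left 236 control and 65 Cnot3-cKO germ barcodes, its log2 ratio was 0.33, and Eomes and Gsc had too few UMIs there to be counted. With control class levels weighted by the stage makeup of Cnot3-cKO it was 0.80. Foxc2 lay just below 2-fold, at 13.2 CPM (12.3 to 14.2) in control and 25.8 CPM (23.9 to 27.8) in Cnot3-cKO, for a log2 ratio of 0.97 (0.81 to 1.12). The remaining genes differed less. Tspan8 stood at 9.70 and 13.9 CPM, a log2 ratio of 0.52 (0.32 to 0.71), and Tcl1 at 19.0 and 25.4 CPM, a log2 ratio of 0.42 (0.27 to 0.56). Nanos2, at 3.26 CPM (2.81 to 3.76) and 3.63 CPM (2.94 to 4.43), had a log2 ratio of 0.16 whose interval of -0.22 to 0.52 held 0. The Nanos2 ratio was negative without Scrublet doublets, at -0.26, and without germ barcodes rich in somatic markers, at -0.23.

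**Figure D3:**
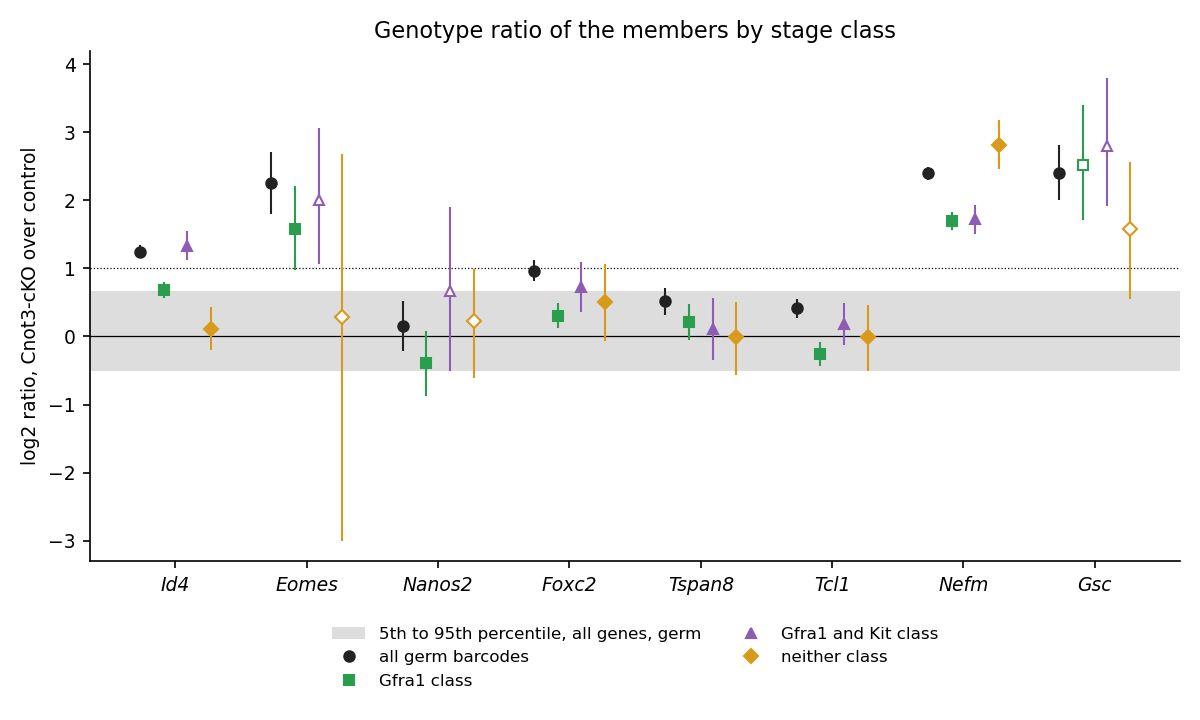
Log2 ratio of Cnot3-cKO over control for each gene in all germ barcodes and in 3 stage classes, with exact conditional 95% intervals (vertical lines). Open symbols mark ratios from under 100 UMIs, the dotted line marks 2-fold, and the grey band the central 90 percent of all genes over germ barcodes. Nefm lies between 1.70 and 2.82 throughout, while Tcl1 is at -0.26 in the Gfra1 class and 0.42 over all germ barcodes.

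Within the Gfra1 class the members drew apart. There 2 of the 7 genes tested, Nefm and Eomes, were 2-fold or more higher in Cnot3-cKO, where 1.48% of all genes were, and the median of the members was 0.30 against 0.02 for all genes. Nefm stood at 53.6 CPM in control and 174 CPM in Cnot3-cKO, for a log2 ratio of 1.70 (1.57 to 1.82), and its share of positive barcodes was 50.2% and 77.6%. Eomes stood at 2.54 CPM from 34 UMIs and 7.58 CPM from 73 UMIs, a log2 ratio of 1.58 (0.97 to 2.21). Eomes fell under the 100 UMIs needed, and out of the count, without Scrublet doublets or without germ barcodes rich in somatic markers, which left 1 of 6. The share of all genes was not counted in those settings. Gsc, with 16 and 66 UMIs, was under it from the start and stood at 1.19 and 6.85 CPM, a log2 ratio of 2.52 (1.72 to 3.41). Id4 stood at 80.0 CPM in control and 128 CPM in Cnot3-cKO, for a log2 ratio of 0.68 (0.56 to 0.80), below 2-fold. Foxc2, at 39.2 and 48.4 CPM, had a ratio of 0.30 (0.12 to 0.49), and Tspan8, at 19.6 and 22.7 CPM, one of 0.22 (-0.05 to 0.48). A pair of genes lay on the other side of 0. Tcl1 was lower in Cnot3-cKO, at 43.1 CPM against 51.6 CPM, a log2 ratio of -0.26 (-0.44 to -0.08), and Nanos2 stood at 6.02 against 7.91 CPM, a ratio of -0.39 (-0.88 to 0.08). Sertoli markers summed to 237 CPM in the Cnot3-cKO Gfra1 class and 153 CPM in that of control.

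In the class with both Gfra1 and Kit, 104 control and 99 Cnot3-cKO barcodes of nearly equal depth (medians of 49012.5 and 49205 UMIs) could be set side by side. Here 2 of the 5 genes tested were 2-fold or more higher in Cnot3-cKO, against 1.05% of all genes. Id4 stood at 48.6 and 122 CPM, a log2 ratio of 1.33 (1.12 to 1.55), and Nefm at 45.1 and 149 CPM, a ratio of 1.72 (1.51 to 1.94). Gsc, at 2.29 CPM from 12 UMIs and 15.9 CPM from 81, had a ratio of 2.79 (1.91 to 3.80), or 2.34 (1.42 to 3.37) without the barcode that held 23 UMIs. The Id4 ratio was thus larger here than in the Gfra1 class, with intervals that did not overlap, whereas the Nefm ratios were nearly equal. Stra8, the retinoic acid response gene, was lower in Cnot3-cKO in this class, at 166 CPM against 358 CPM. In Kit class barcodes 1 of 2 genes tested passed, against 0.388% of all genes, and this was Nefm at 2.04 and 6.71 CPM. It rested on 48 and 53 UMIs, close to the 100 needed, and the richest Cnot3-cKO barcode held 13. With neither marker 1 of 5 passed, against 0.87% of all genes, again Nefm, at 6.87 and 48.5 CPM, a ratio of 2.82 (2.46 to 3.18) that ranked 2 of 10004. The 173 Nefm UMIs of Cnot3-cKO there came from 28 of 92 barcodes, the richest holding 41. Id4 in that class stood at 27.4 CPM (24.9 to 30.2) and 29.7 CPM (24.3 to 35.9), which overlapped.

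The shares of the 4 classes could be held equal by weighting control class levels with the share of UMIs each class had in Cnot3-cKO, a calculation chosen after seeing the data. The control level so weighted was 30.0 CPM for Nefm, 1.39 for Gsc and 1.53 for Eomes, over which the Cnot3-cKO levels were 3.38-fold, 4.91-fold and 3.24-fold higher. Makeup still differed inside the classes. With both markers, Gfra1 was 1.61-fold higher, Kit 0.688-fold and Stra8 0.462-fold in Cnot3-cKO, and the part of such differences in the ratios was not tested. For Id4 the weighted control level was 44.1 CPM, leaving 1.74-fold, and for Foxc2 it was 19.4 CPM, leaving 1.33-fold. Tspan8 was left at 1.12-fold, and Tcl1 and Nanos2 stood at 0.924 and 0.916 of their weighted control levels.

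A narrower cut kept Nefm and Id4 higher in Cnot3-cKO, but not Foxc2, and Tcl1 was lower. In Gfra1 class barcodes without Stra8 (137 control, 119 Cnot3-cKO), Nefm stood at 84.9 CPM (77.3 to 93) and 226 CPM (214 to 239), and Id4 at 104 CPM (95.7 to 113) and 159 CPM (149 to 171). For both genes these levels were above those of the whole Gfra1 class. Eomes stood at 4.43 and 8.84 CPM, with intervals of 2.84 to 6.59 and 6.50 to 11.8 that just overlapped. Foxc2 stood at 53.3 and 51.0 CPM, Tspan8 at 20.7 and 27.5 CPM and Nanos2 at 10.1 and 7.15 CPM, each with overlapping intervals. Tcl1 was lower in Cnot3-cKO, at 70.5 CPM (63.6 to 77.9) in control and 51.2 CPM (45.3 to 57.6) in Cnot3-cKO. Gsc stood at 1.11 CPM (0.406 to 2.41) from 6 UMIs in control and 7.15 CPM (5.06 to 9.81) from 38 UMIs in Cnot3-cKO. At the other end, in germ barcodes with Neurog3 (344 and 48), Id4 stood at 25.1 and 22.2 CPM, with overlapping intervals. Tcl1 stood there at 11.3 CPM (9.68 to 13.0) in control and 4.51 CPM (2.33 to 7.87, 12 UMIs) in Cnot3-cKO. Nefm in these progenitor-marked barcodes stood at 5.84 CPM (4.73 to 7.14) in control and 40.6 CPM (33.3 to 49.0) in Cnot3-cKO, and Gsc at 1.41 CPM (0.896 to 2.12) and 7.89 CPM (4.88 to 12.1). The Nefm UMIs of Cnot3-cKO came from 10 of those 48 barcodes, and 1 barcode held 65 of the 108. The Nefm level there thus leaned on 1 barcode, which its interval does not cover. By these levels Nefm and Gsc were higher in Cnot3-cKO in Neurog3-marked barcodes too, where Tcl1 was lower and the Id4 intervals overlapped.

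To compare shares of positive barcodes, each barcode was thinned to 10000 UMIs, which left out 20 control and 5 Cnot3-cKO germ barcodes, and shares were averaged over 50 random draws. Nefm was then detected in 10.6% of germ barcodes in control and 31.3% in Cnot3-cKO, Id4 in 21.1% and 34.9%, and Foxc2 in 10.3% and 17.99%. Gsc was seen in 1.27% and 5.18%, and Eomes in 1.05% and 4.29%. Nanos2 was at 3.05% and 3.58%, Tspan8 at 9.06% and 12.5%, and Tcl1 at 13.4% and 18.7%. In Sertoli barcodes, taken as a somatic background, Id4 was at 1.91% and 2.26% and Tspan8 at 2.28% and 2.15%, and no other gene exceeded 0.308%. The germ shares of all 8 genes thus lay above the Sertoli shares at the same depth.

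At that depth, 18.3% of control germ barcodes (16.2 to 20.5) and 37.2% of Cnot3-cKO germ barcodes (33.2 to 41.4) held UMIs of at least 2 of the 8 genes. In Sertoli barcodes the share was 0.0827% and 0.104%. The germ values depended on the depth chosen, at 42.1% and 61.3% without thinning, and stood in the same order at each depth tried. Within the Gfra1 class the shares were 50.3% and 65.7%, and in the Kit class 1.18% and 3.48%. Thinned to 20000 UMIs, 49.7% of control and 33.4% of Cnot3-cKO germ barcodes held none of the 8 genes, and 9.96% and 22.1% held at least 4. The mean number per barcode was 1.13 and 1.91 in germ barcodes, and 2.55 and 3.10 in the Gfra1 class.

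**Figure D4:**
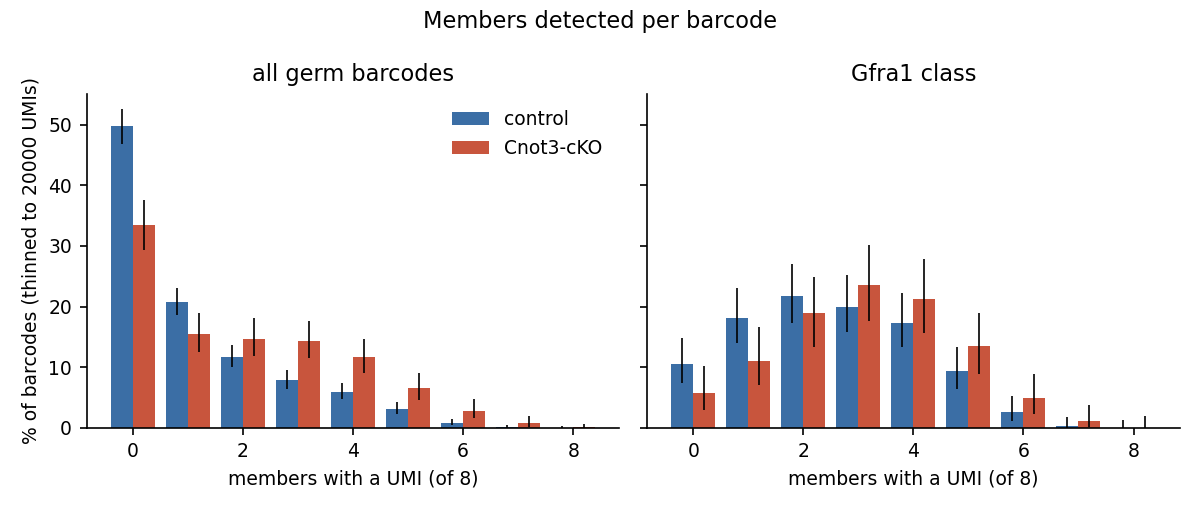
Share of barcodes (%) by the number of the 8 genes with a UMI, after thinning to 20000 UMIs, in all germ barcodes (left) and the Gfra1 class (right) of the control (blue) and Cnot3-cKO (red) library, with exact binomial 95% intervals. Bars for 0 genes stand at 49.7% and 33.4% on the left.

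Co-detection was counted by pairs of the 8 genes. All 8 were found together in 0 control and, on average over the draws, 0.5 Cnot3-cKO germ barcodes at 20000 UMIs. At 20000 UMIs, all 28 pairs were seen in more germ barcodes than the product of their shares gives, in both libraries, with a median ratio of 2.14 in control and 1.65 in Cnot3-cKO. Pairs whose product came to at least 5 barcodes numbered 21 and 25, and the others rest on few barcodes. Within the Gfra1 class the medians were 1.19 and 1.14, and 22 and 27 of the 28 pairs lay above the product. Co-detection was part of the choice of the members, and other gene pairs were not counted. These counts of pairs therefore describe the members only. The pairing of Foxc2 with Tcl1 was among the fuller ones in control, at 125.6 germ barcodes on average over the draws against 44.7 by the product. Of germ barcodes with Eomes, 79.2% also held Id4 in control and 92.4% did in Cnot3-cKO. Id4 was in 32.5% and 48.0% of all germ barcodes at that depth. The pair thus stood at 2.44 times the product in control and 1.92 times in Cnot3-cKO. In Cnot3-cKO, Eomes and Gsc were seen together in 11.3 germ barcodes on average where the product gives 3.25, a ratio of 3.48. In control Gsc showed little of this, at 10.4 barcodes with Id4 against 10.2 by the product, whereas in Cnot3-cKO it had 36.3 against 22.9.

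**Figure D5:**
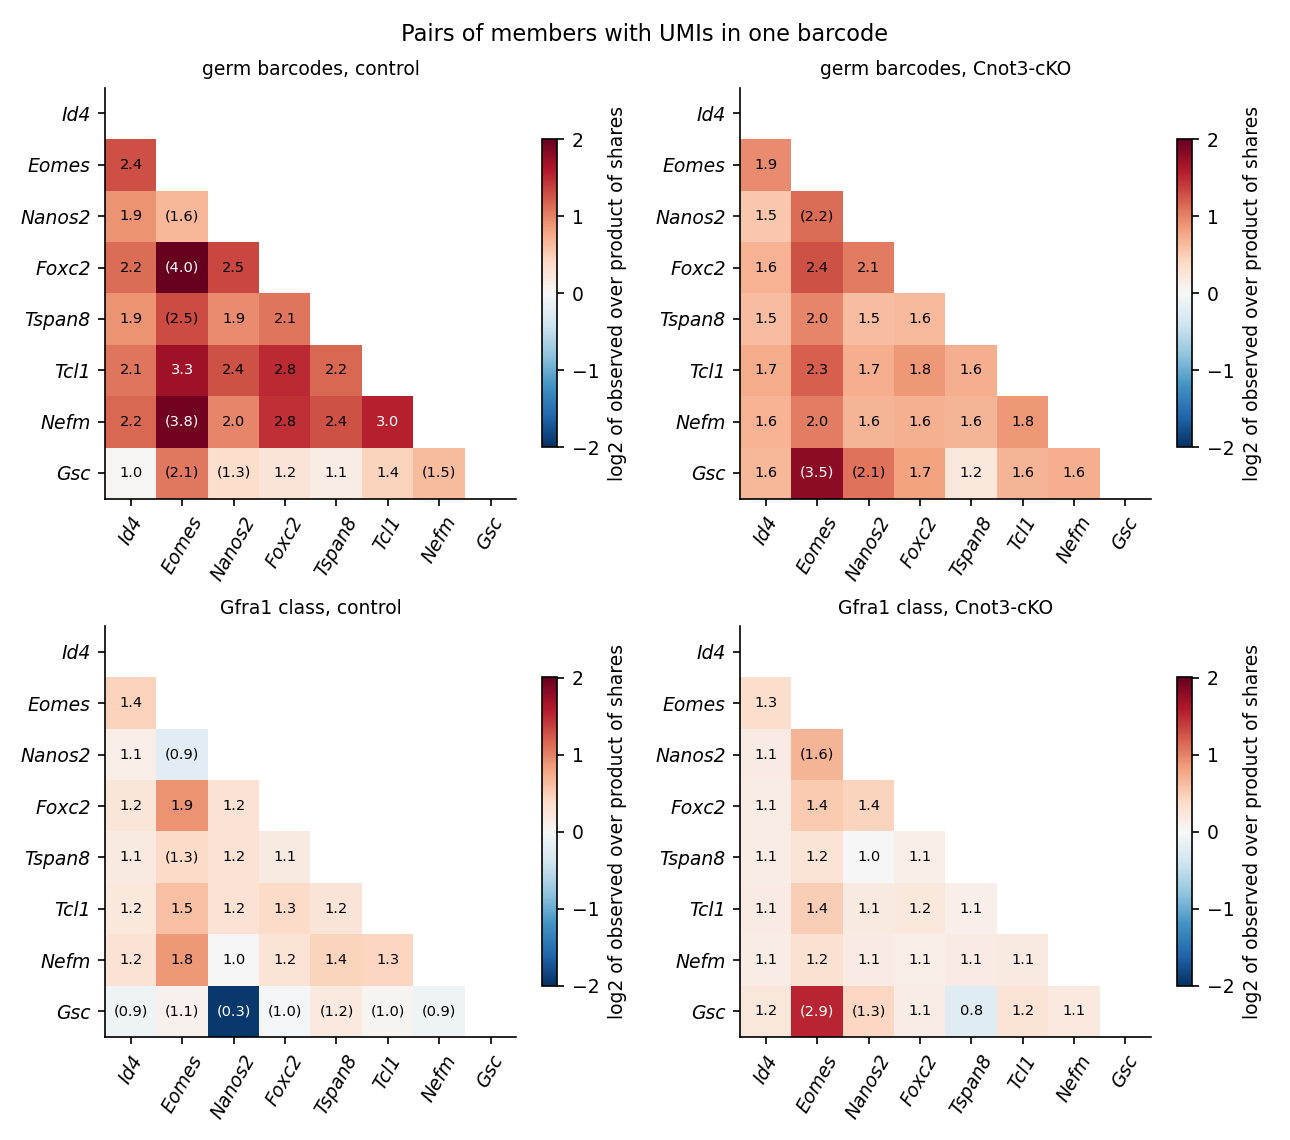
Barcodes with UMIs of both genes of a pair over the number given by the product of the 2 shares (numbers in the cells, colour on a log2 scale), after thinning to 20000 UMIs, in germ barcodes (top) and the Gfra1 class (bottom). Brackets mark pairs whose product is under 5 barcodes. The ratios have a median of 2.14 and 1.65 in germ barcodes and of 1.19 and 1.14 in the Gfra1 class.

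Inside the Gfra1 class, the barcodes with an Eomes UMI (25 control, 35 Cnot3-cKO) held more Id4, Nefm and Foxc2. Id4 stood at 195 CPM in Eomes-positive and 71.0 CPM in Eomes-negative barcodes of control, and at 262 and 99.2 CPM in Cnot3-cKO. Nefm stood at 103 against 49.7 CPM in control and at 298 against 147 CPM in Cnot3-cKO. Foxc2 stood at 76.2 against 36.3 CPM in control and at 89.8 against 39.3 CPM in Cnot3-cKO. For these genes the intervals of the log2 ratios lay above 0 in both libraries, and Lhx1, a homeobox gene of the stem state, went furthest. Lhx1 stood at 178 against 16.4 CPM in control and 74.7 against 13.9 CPM in Cnot3-cKO. Nanos2 shared too few barcodes of this class with Eomes to compare the libraries. Thinned to 20000 UMIs, it shared 1.7 control barcodes of this class with Eomes on average against 1.97 by the product. In Cnot3-cKO it shared 3.68 against 2.29. A split on Nefm gave a like picture for the later stage markers. Stra8 stood at 36.6 CPM in Nefm-positive and 95.2 CPM in Nefm-negative barcodes of the control Gfra1 class, and at 30.8 and 105 CPM in Cnot3-cKO. Neurog3 stood at 4.52 and 19.7 CPM in control and at 0.529 and 8.23 CPM in Cnot3-cKO. Nefm-positive barcodes thus held less of both genes in each library. In Cnot3-cKO, Id4 stood at 203 CPM in the 34 Gsc-positive and 111 CPM in the Gsc-negative barcodes of this class, and Eomes at 21.9 and 4.33 CPM. In control only 14 barcodes were Gsc-positive, with Id4 at 121 against 78.1 CPM and Neurog3 at 34.9 against 11.2 CPM. Only 3 of those 14 barcodes held a Neurog3 UMI, too few to compare the Neurog3 levels.

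Other genes of the stem state came from a list drawn up with earlier results of these data known. The members had been chosen with their genotype ratio known, so the medians of list and members cannot be compared. Of 25 listed genes 22 had the 100 UMIs, and 3 were 2-fold or more higher in Cnot3-cKO germ barcodes, namely Gfra1, Spry4 and Dusp6, beside 1.82% of all genes. Spry4 and Dusp6 encode feedback inhibitors of MAPK signalling. Spry4 had a log2 ratio of 1.07 and Dusp6 one of 1.14, and the median of the list was 0.32. Within the Gfra1 class none of 21 passed in either direction, beside 1.48% of all genes higher and 0.826% lower, and the median was -0.18. Etv5 and Bcl6b, targets of GDNF signalling, stood there at 41.8 and 45.3 CPM and at 20.01 and 23.8 CPM, and Zbtb16, a transcription factor of undifferentiated spermatogonia, at 146 and 98.9 CPM. Of the progenitor list, 3 of 12 were 2-fold or more lower over germ barcodes, Neurog3, Rarg, a retinoic acid receptor, and Dppa3, at log2 ratios of -2.10, -1.03 and -1.79, beside 0.697% of all genes. Within the Gfra1 class 3 of 11 were, Neurog3, Rarg and Prtg, where 0.826% of all genes were that much lower. Of the differentiating list none of 12 passed over germ barcodes, and the median was -0.16.

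Of 14 listed relatives of the members 7 had the 100 UMIs and none passed 2-fold between genotypes, and the others could not be counted. Over germ barcodes 1.82% of all genes were 2-fold or more higher and 0.697% lower, so this count does not set the relatives apart. Id1, Id2 and Id3, which encode the other inhibitors of the ID family, stood at 16.6, 11 and 20.7 CPM in control germ barcodes and at 38.9, 126 and 126 CPM in control Sertoli barcodes. Id4 was thus the member of the ID family that was higher in germ than in Sertoli barcodes. Nefh, the heavy neurofilament chain, stood at 37.7 CPM in control and 46.3 CPM in Cnot3-cKO germ barcodes, a log2 ratio of 0.30, and Nefl at 1.29 and 2.14 CPM, a ratio of 0.73. Neither of the other chains thus came near the Nefm ratio of 2.40. Nanos3, which acts in germ cells from the embryo on, stood at 43.9 and 27.5 CPM, a log2 ratio of -0.67, and Nanos1 at 35.6 and 25.2 CPM, one of -0.49.

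The genes with profiles most like each member were sought by Pearson's correlation of log2(CPM + 1) over 8 profiles, the 4 stage classes in each of the 2 libraries, among 3487 genes. The profiles of a library share its depth and free RNA, so these values are descriptions. Id4 was closest to Tjp1 (0.997), a tight junction scaffold, and Fst (0.996), the activin antagonist follistatin, and Foxc2 to Sphk1 (0.995) and Fst (0.992). Tcl1 was closest to Fyn (0.997), a SRC family kinase, Tspan8 to Bod1l (0.996) and Nanos2 to Dopey2 (0.993). Ret, the signalling receptor of GDNF, was next but one for Tspan8 (0.993). Nefm was closest to Il1r2 (0.995), a decoy receptor for interleukin 1, Eomes to Cers4 (0.979), and Gsc to RP23-67H24.1 (0.960). Among the members, Id4 with Foxc2, Foxc2 with Tcl1 and Tspan8 with Tcl1 stood at 0.988, 0.988 and 0.989, whereas Gsc had 0.330 with Nanos2 and 0.776 with Eomes. Gsc and Nanos2 were thus the least alike pair of the 8 genes.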

How the data were processed

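Testis cells of 2 control and 2 Cnot3-cKO samples were profiled on a droplet platform tagging 3′ ends. The deposited values were raw UMI counts per gene and barcode, which the authors made with Cell Ranger 3.0.1 and mm10 per the submitters' processing notes. All kit barcodes were listed and no cells were called. Libraries held 181550221 and 168770743 UMIs. Cells were called above a UMI cutoff set from the deepest barcodes for 3000 expected cells. Somatic classes were named from summed markers (at least 10 UMIs of one class, every other class at most that sum divided by 5, at most 1 germ UMI). Summed UMIs were divided by all UMIs of the same barcodes and multiplied by 1000000 (CPM), and their intervals were exact Poisson ones. Ratios had exact conditional intervals, shares Clopper-Pearson intervals, at 95%. Genes with at least 100 UMIs over both groups of barcodes were set against 2-fold. Thinning averaged 50 draws. Scrublet (scanpy 1.11.5) marked doublets, which were kept in the main values, as were barcodes over the study's limits (at most 10% mitochondrial UMIs, UMIs and genes within 2 SD of the mean), since these removed 82.5% and 88.5% of germ barcodes. Python 3.11.15, numpy 2.4.6, scipy 1.17.1, pandas 2.3.3 and matplotlib 3.10.9 were used, and the summing and ratio steps were tested on simulated data. The members, gene lists and rules were chosen with earlier results of these data known. Genes named were the members, the stage and targeted genes, listed genes past 2-fold (up to 4 a list), relatives of members and, for each member, up to 3 most like genes in profile. Etv5, Bcl6b, Zbtb16 and Lhx1 fall outside this rule and were named after their values were seen. Alternatives changed the germ threshold, barcode calling, filters, doublets, somatic markers, scaling, free RNA, UMI minimum, class cut and thinning depth.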

Additional observations from a re-analysis of the deposited data

How the results depend on the processing

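No paired analysis was possible because each genotype was 1 merged matrix, and for the same reason no sample could be left out in turn. Of 82 alternative values for the main counts and shares, 67 stayed within 1.5 times the count or within the interval and 15 moved. Of 202 alternative log2 ratios of single members, 25 lay outside the interval given and 5 had the other sign, 3 of Nanos2 and 1 of Tcl1 over germ barcodes and 1 of Tspan8 in the Gfra1 class. The filters of the study, leaving 236 and 65 germ barcodes, gave 1 of 4 members testable past 2-fold over germ barcodes, 1 of 4 in the Gfra1 class, 2 of 2 over Sertoli, and 26.6% of control germ barcodes with at least 2 members. Without Scrublet doublets, and without germ barcodes rich in somatic markers, 1 of 6 passed in the Gfra1 class, and in the latter 3 members were highest in that class in both libraries. A minimum of 500 UMIs left 2 of 5 over germ barcodes and 1 of 4 in the Gfra1 class, fewer genes being tested. The share of all genes was not counted under these changed settings, so these counts describe the members only. The share with at least 2 members was 10.0% and 23.3% at 5000 UMIs, 29.6% and 51.1% at 20000 UMIs, and 42.1% and 61.3% without thinning. Over these alternatives and 2 chosen after seeing the data (weighting by class makeup, and leaving out the Cnot3-cKO barcode richest in the gene), the log2 ratio over germ barcodes ranged from 1.51 to 2.41 for Nefm, 1.70 to 2.28 for Eomes, 2.20 to 2.45 for Gsc, 0.33 to 1.27 for Id4 and -0.26 to 0.21 for Nanos2. In the Gfra1 class it ranged from 1.25 to 1.70 for Nefm and 0.09 to 0.71 for Id4. Where a cause is not stated, the cause was not tested. Eomes and Gsc, with at most 178 UMIs in a library, were limited by depth in every class.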
